A study of Mus musculus with 20 samples.

Results

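Day 28 of the conversion of extraembryonic endoderm (XEN) cells to induced pluripotent stem (iPS) cells was compared with day 14, across all genes, to ask what changed between the middle and the late stage of reprogramming. The comparison used 2 libraries of each day and 18793 of the 134279 cells that the 20 libraries of the series hold. Cells were kept when they had 500 or more genes and fewer than 5 UMIs (unique molecular identifiers, which count RNA molecules) over the collagen genes Col1a1, Col1a2 and Col3a1, which mark the fibroblast feeder cells on which reprogramming took place. These limits left 5028 and 6214 cells of the day 14 libraries and 5570 and 1981 cells of the day 28 libraries. Doublets, droplets that hold 2 cells, were neither called nor removed here, and their treatment by the authors is not given in the sources used here.

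By their labels all 4 libraries came from 1 XEN line, 3F-4, which was homozygous at 3 loci. Col1A1TetO-OKSmCh let doxycycline switch on Oct4, Klf4 and Sox2 together with mCherry, R26M2rtTA supplied the activator that doxycycline needs, and Oct4-GFPTg reported the Oct4 gene. Induced, mCherry-positive cells were grown at both days on inactivated mouse embryonic fibroblasts in serum and LIF with doxycycline, ascorbic acid and a GSK3β inhibitor. At each day 4 subpopulations were sorted by the surface antigen SSEA-1 and by Oct4-GFP and mixed again in about equal parts, so that shares of cells are not those of the culture and the level of Pou5f1 (Oct4) is tied to the gate. The counts cannot separate transcripts of the cassette, where these were counted, from those of the endogenous Pou5f1, Klf4 and Sox2.

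XEN cells resemble the primitive endoderm of the blastocyst, which secretes basement membrane and is held in place by transcription factors such as Gata4, Gata6 and Sox17. Pluripotent cells correspond to the neighbouring epiblast and rest on a network of Oct4, Sox2, Nanog, Esrrb and their partners. Conversion of the first into the second requires that the endoderm genes be silenced and the pluripotency genes, many of which are methylated in other lineages, be opened.

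The libraries differed in ways other than the day. Totals over the kept cells were between 63488619 and 110450411 UMIs, and median UMIs per cell were 11719 and 13700.5 at day 14 and 17810.5 and 29774 at day 28. Mitochondrial genes took 2.22% and 2.82% of UMIs at day 14 and 3.51% and 3.40% at day 28. The day 28 libraries were sequenced in the run that held the XEN libraries and the day 14 libraries in the run that held day 7, so run and day cannot be told apart. Levels in XEN and at day 7 are therefore given for the main genes. RNA of Y-linked genes was at 6.84 and 1.91 CPM (UMIs of a gene scaled to a common library total) at day 14 and at 2.24 and 0.119 CPM at day 28, against 36.7 and 26.8 CPM in XEN, and Xist, the RNA that coats an inactive X chromosome, was at 6.55 and 12.2 CPM and at 24.3 and 23.7 CPM, against 0.508 and 0.191 CPM in XEN. Of 596 tested genes of the X chromosome 9.06% were called higher at day 28, against 7.07% of autosomal genes. Y-linked RNA thus differed between the 2 libraries of each day, although they are labelled as duplicates of the same line, and Xist was higher and Y-linked RNA lower in all 4 than in XEN, and whether RNA of other cells was present was not tested. The part of these differences in the results was not tested either. The 2 libraries of a day are technical duplicates, so the p-values do not cover the variation between cultures. Pairs of libraries shared between 10 and 59 cell barcodes, at most 1.06% of the smaller library.

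Markers of both states had UMIs at both days. All 8 endoderm markers chosen to check the cells (Gata4, Gata6, Sox17, Sox7, Pdgfra, Dab2, Foxa2 and Lama1) were detected in each of the 4 libraries, and so were the 8 pluripotency markers (Pou5f1, Nanog, Sox2, Esrrb, Zfp42, Dppa5a, Utf1 and Tdh). At these depths a UMI in a library is a weak criterion: XEN replicate 2 also had UMIs of all 8 pluripotency markers, with Nanog at 0.0795 CPM and Utf1 at 3.44 CPM. The endoderm markers were at 10.5 CPM (Sox7) or more in each of the 4 libraries, while at day 14 Nanog, Sox2 and Esrrb were at 2.48 CPM or less. Summed over 15 feeder fibroblast genes, RNA was at 13.3 and 20.2 CPM at day 14 and at 18.9 and 12.1 CPM at day 28, and 0 of the 15 were called. Of 16 genes of 2-cell-like cells, 7 could be tested and 0 were called, with summed levels between 0.0341 and 1.06 CPM. Over all genes tested 7.19% were called higher and 0.621% lower, so these counts give no result about either list.

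UMIs were summed per library and the sums compared with edgeR's quasi-likelihood test in 1 model of the 20 libraries. Calls required that the p adjusted by Benjamini-Hochberg was below 0.05 and that the log2 fold change reached 1 in size. Of 16903 genes tested, 1215 were higher at day 28 (7.19% of the genes tested) and 105 were lower (0.621%), and together these made up 7.81%. The 2 libraries of each day did not overlap in any of the called genes, which was so for 59.4% of all genes tested. The median log2 fold change of all genes was 0.01. Genes that rose were mostly of low level: 1127 of them had less than 20 CPM at day 28, and 80 had 0 UMIs in both day 14 libraries. The median level of the called higher genes went from 0.175 to 1.69 CPM, and that of the called lower genes from 12.1 to 5.11 CPM. The number called rested on all 4 libraries: without day 14 replicate 2, 295 genes were higher and 21 lower, and without each of the other libraries between 487 and 803 were higher and between 27 and 60 were lower. Levels were also compared between XEN and day 28, which shared a run, and day 7 and day 14, which shared the other. Both runs also held libraries of other conditions, which were left out of this comparison. All 4 libraries of XEN and day 28 lay below all 4 of day 7 and day 14 for 40 of the 105 genes called lower (38.1%). They lay above them for 138 of the 1215 called higher (11.4%). Called genes meet part of this condition already, so the base is the genes whose 2 days did not overlap in that direction, called or not. Of these, 22.1% of 4661 and 12.8% of 5387 were split in the same way. No difference between these shares was tested. After each cell had been thinned to 2000 UMIs, 307 genes were higher and 27 were lower.

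**Figure D1:**
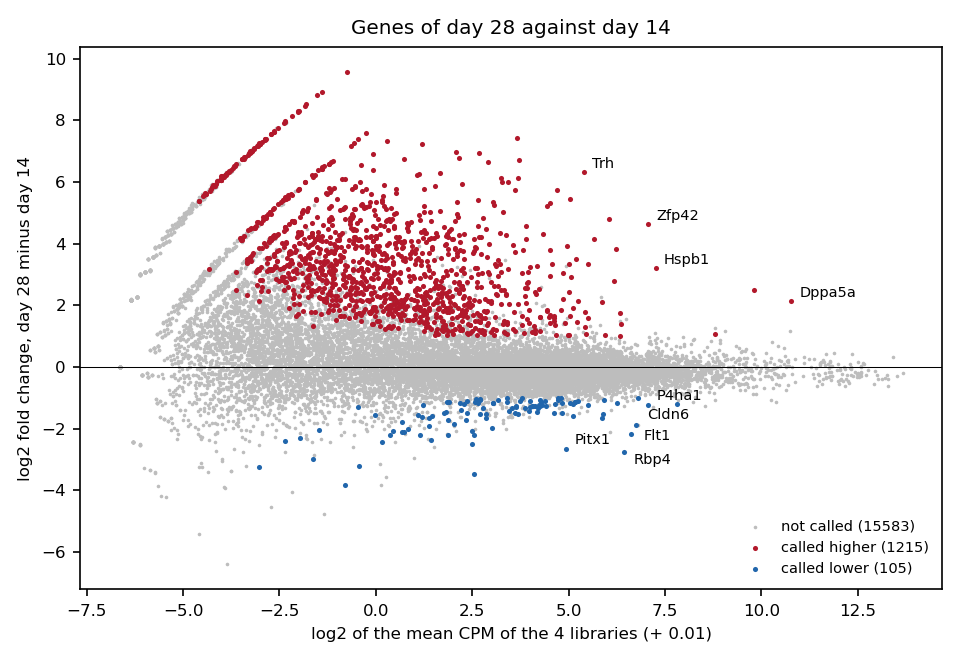
Each point is 1 of 16903 genes, with the log2 of its mean CPM over the 4 libraries (plus 0.01) on the x axis and its log2 fold change, day 28 minus day 14, on the y axis. The 1215 genes called higher lie mostly at low levels, those with 0 UMIs at day 14 form the slanted line at the upper left, and the 105 called lower lie closer to 0 than most of those called higher.

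Most genes of a pluripotency list rose. Of the 30 genes of a naive and core pluripotency list, all of which were tested, 21 were called higher and 0 lower, against 7.19% and 0.621% of all genes, with a median log2 fold change of 3.07 against 0.01 for all. The remaining 9 were Pou5f1, Tdgf1, Crxos, Prdm14, Mybl2, Klf4, Klf5, Sall4 and Lin28a. Without day 14 replicate 2 the number called was 10, and it was 19 in thinned cells.

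Transcription factors of the pluripotency circuit rose from near 0. Sox2 was at 2.48 and 0.502 CPM at day 14 and at 62.7 and 64.6 CPM at day 28, a log2 fold change of 5.45 ± 0.89 (SE, adjusted p = 0.0014). Nanog went from 1.67 and 0.636 CPM to 43.7 and 45.7 CPM, a log2 fold change of 5.31 ± 0.88 (adjusted p = 0.0017), and Esrrb, an orphan nuclear receptor of the naive state, from 0.773 and 0.424 CPM to 18 and 20.1 CPM (5.02 ± 0.57, adjusted p = 1.4e-04). In XEN and at day 7 none of these 3 factors exceeded 0.648 CPM, and in the XEN-iPS libraries Sox2 was at 191 and 243 CPM and Nanog at 141 and 118 CPM. The day 28 level thus lay between that of the earlier libraries and that of established XEN-iPS cells for both. Without day 14 replicate 2, the adjusted p of Nanog was 0.053 and that of Sox2 0.036.

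On GRCm38, Sox2 lies at chr3:34650405-34652461, Nanog at chr6:122707489-122714633, Dppa3 at chr6:122626410-122630272 and Rbp4 at chr19:38116629-38125281. These are GENCODE vM21 positions, and the RefSeq starts used for the windows can lie elsewhere, as for Sox2. The promoters of the genes that led the comparison in each direction were read from RefSeq (GRCm38.p6), from 250 bases before to 50 bases after the transcription start. Those of Sox2 and Nanog are shown because Sox2 and Oct4 proteins bind neighbouring sites in pluripotent cells, and that of Rbp4 because it was the gene that fell most among those at 50 CPM or more. Capitals mark matches, on either strand, to ATGCAAA (a short form of the Oct octamer), CATTGT (the core of a SOX site) and TGANTCA (the AP-1 site).
Sox2, chr3:34649745-34650044, plus strand: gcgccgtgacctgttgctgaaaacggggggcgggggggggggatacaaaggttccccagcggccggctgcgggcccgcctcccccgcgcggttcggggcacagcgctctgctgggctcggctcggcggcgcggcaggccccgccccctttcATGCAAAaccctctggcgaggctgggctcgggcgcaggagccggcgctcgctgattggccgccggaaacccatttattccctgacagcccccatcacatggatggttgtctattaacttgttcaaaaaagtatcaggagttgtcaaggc
Nanog, chr6:122707239-122707538, plus strand: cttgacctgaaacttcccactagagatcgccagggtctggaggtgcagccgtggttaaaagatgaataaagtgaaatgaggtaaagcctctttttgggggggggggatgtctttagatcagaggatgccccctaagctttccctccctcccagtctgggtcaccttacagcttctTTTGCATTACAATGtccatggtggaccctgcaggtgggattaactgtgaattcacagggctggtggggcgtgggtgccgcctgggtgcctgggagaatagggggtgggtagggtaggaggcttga
Rbp4, chr19:38124762-38125061, minus strand: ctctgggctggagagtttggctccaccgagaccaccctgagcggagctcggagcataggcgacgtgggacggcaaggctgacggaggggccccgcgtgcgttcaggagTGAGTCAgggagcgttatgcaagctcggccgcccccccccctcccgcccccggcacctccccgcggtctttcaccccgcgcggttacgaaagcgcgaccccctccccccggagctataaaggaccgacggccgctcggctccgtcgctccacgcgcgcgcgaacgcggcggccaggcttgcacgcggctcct
RefSeq gives 2 starts for Nanog, and the window of the first is shown. In it a SOX core and a short octamer stood 1 base apart and ran on as TTTGCATTACAATG, with its first base 75 bases before the start and 151 bases before the other start. Of 12617 tested genes with a RefSeq window, Nanog was the only 1 with this pair. The Sox2 window held a short octamer alone, starting 99 bases before the start, and 1 of the 2 Rbp4 windows held an AP-1 match, 142 bases before it. For Rbp4 the window with the match is shown, and the other held no match. The short forms and the pair were searched for after the sequences had been seen. The windows of Trh, Flt1 and Cldn6, the other genes at either end of the named genes with a window, held no match to any motif searched.

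Motif shares over the called genes are given beside those of all genes tested, with both strands searched. The octamer ATGCAAAT was in 2.62% of the 879 called higher genes with a window, in 0 of the 81 called lower and in 1.74% of all. The KLF motif CCACACCC was in 5.92%, 7.41% and 4.69%, the GATA motifs AGATAA and TGATAA in 14.1%, 9.88% and 13.1%, and TGANTCA in 7.51%, 7.41% and 6.78%. ATGCAAA, which lies within the octamer, was in 6.14%, 1.23% and 4.34%, and CATTGT in 11.4%, 16% and 9.68%. No difference between these shares was tested.

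Other genes associated with pluripotency rose as well, among them Zfp42, which the study also reports in an intermediate state that still expresses XEN genes. Zfp42 (Rex1), a zinc finger protein of the naive state, was at 13.3 and 7.55 CPM at day 14 and at 245 and 272 CPM at day 28 (log2 fold change 4.64 ± 0.57, adjusted p = 2.1e-04). Dppa3 (Stella), a maternal factor that protects methylation marks, went from 1.71 and 0.268 CPM to 47.7 and 54.0 CPM (5.75 ± 0.66, adjusted p = 1.4e-04). At day 28 it stood above the 21 and 15.6 CPM of the ES libraries and below the 167 and 90.1 CPM of XEN-iPS. Utf1, a chromatin factor of undifferentiated cells, rose from 6.29 and 2.88 CPM to 135 and 120 CPM (4.81 ± 0.76, adjusted p = 0.0012), and Tdh, the threonine dehydrogenase on which mouse pluripotent cells depend, from 6.70 and 5.18 CPM to 62.1 and 73.4 CPM (3.51 ± 0.41, adjusted p = 1.45e-04). In XEN and at day 7 Zfp42 was at most at 5.20 CPM, Utf1 at 4.66 CPM and Dppa3 at 0.0978 CPM, and Tdh was at 0.355 and 0.300 CPM in XEN and at 8.54 and 6.32 CPM by day 7. These 4 genes were called whichever of the 4 libraries was left out, although the log2 fold change then ranged from 4.89 to 7.54 for Dppa3 and from 4.68 to 6.96 for Sox2.

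Dppa5a, an RNA-binding protein of pluripotent cells, differed from these genes in that it was already abundant at day 14. Its XEN level was 0.524 and 0.662 CPM. From there it stood at 205 and 406 CPM by day 7 and at 665 and 634 CPM by day 14, and it reached 2882 and 2842 CPM by day 28 (log2 fold change 2.14 ± 0.31, adjusted p = 7.0e-04).

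For 2 of the 3 induced factors the sums did not differ in a way that passed the test. Pou5f1 was at 14.3 and 24.5 CPM at day 14 and at 82.5 and 106 CPM at day 28, which do not overlap, with a log2 fold change of 2.28 ± 0.69 and an adjusted p of 0.054. Pou5f1 was called with DESeq2 (adjusted p = 0.00585), without the filter on low counts (0.0081), in thinned cells (0.049) and when the model held no other libraries than these 4 (0.0036). Klf4 was at 169 and 172 CPM and at 154 and 181 CPM (−0.03 ± 0.26), levels that overlap between the days and with the 171 and 150 CPM of XEN. At day 7, also under doxycycline, Klf4 was at 110 and 103 CPM. Sox2 was then at 0.0448 and 0.269 CPM, against 0.0655 and 0.106 CPM in XEN. Pou5f1 was at 2.17 and 15.5 CPM, against 0.636 and 0.751 CPM in XEN. How much RNA of the cassette these counts hold was not tested. Klf5, Sall4 and Lin28a had log2 fold changes of −0.05, −0.17 and −0.52 and were not called. Mybl2, a cell cycle transcription factor, had an adjusted p of 0.029 but a log2 fold change of 0.81, under the limit.

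**Figure D2:**
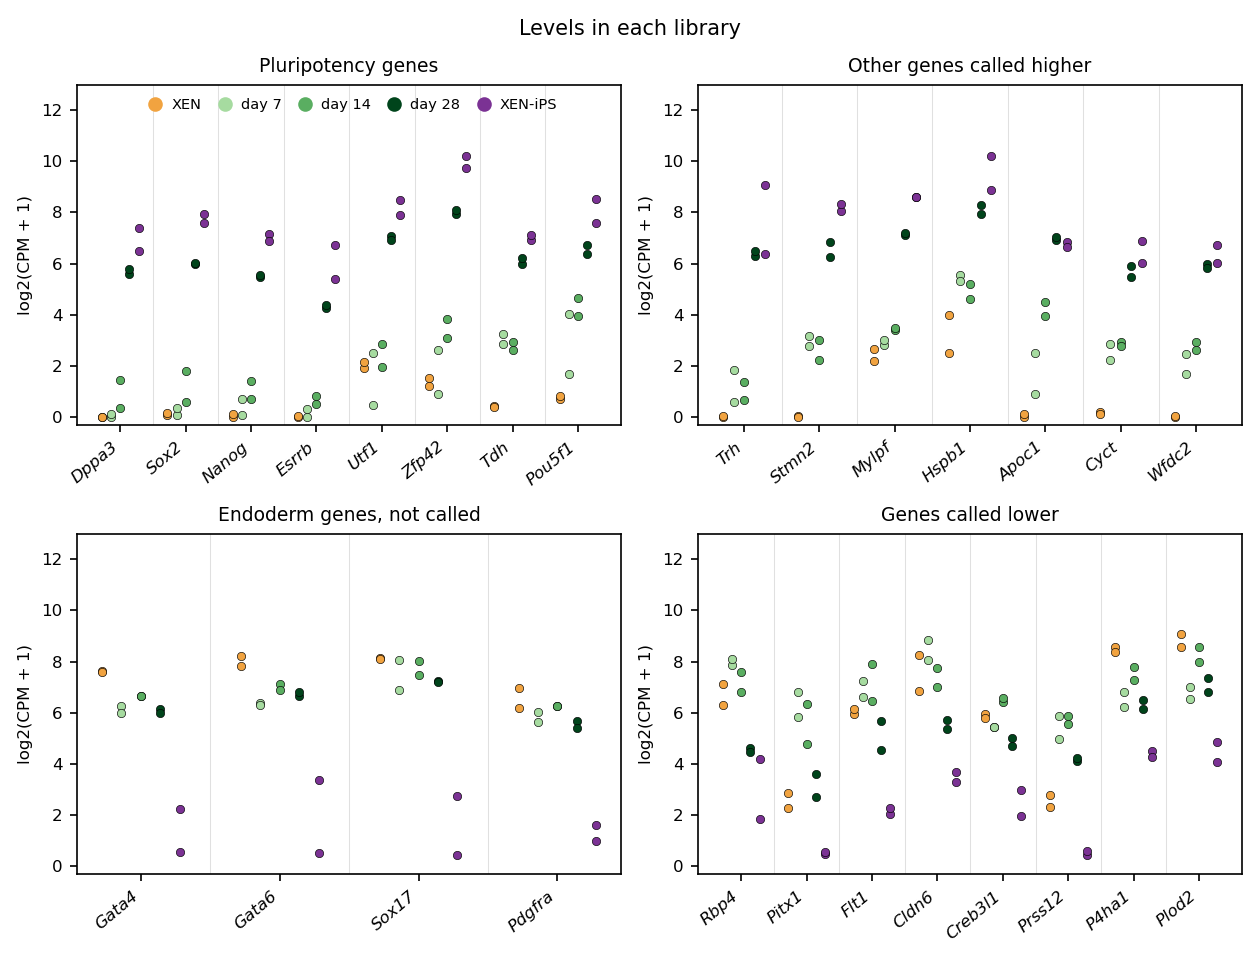
Each point is 1 library, with log2(CPM + 1) on the y axis and the genes along the x axis, coloured by condition. The 2 day 28 libraries lie apart from the 2 day 14 libraries for each gene in the panels of genes called higher and lower, while Gata4, Gata6, Sox17 and Pdgfra lie within about 1 log2 unit of day 14 at day 28 and well above XEN-iPS.

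Cells were next counted by whether they held a UMI of a gene, after thinning each cell to 2000 UMIs so that the deeper day 28 cells could be compared. Zfp42 was detected in 1.56% of cells (95% Wilson interval 1.25 to 1.95) and 1.04% (0.811 to 1.34) at day 14 and in 18.3% (17.2 to 19.3) and 20.7% (19 to 22.6) at day 28, against 0.358% and 0.345% in XEN, whose cells should lack it and had median depths of 15016.5 and 18976 UMIs. Sox2 went from 0.329% and 0.124% of cells to 6.15% and 6.65%, and Nanog from 0.185% and 0.0885% to 4.58% and 5.85%. Dppa3 was in 4.38% and 5.01% of day 28 cells and in 3.74% and 2.91% of ES cells. In XEN these 3 genes had a UMI in at most 3 cells of either library, and 0 of the 6708 cells of XEN replicate 1 had one, which allows up to 0.0447% of thinned cells with a UMI and sets no limit on cells that express the gene. Without thinning, 0.101% of the cells of that library had a UMI of Sox2. Dppa5a was in 23.9% and 25.7% of day 14 cells and in 69.6% and 65.2% of day 28 cells, against 0.134% and 0.207% in XEN. The intervals cover counting error only, and with 2 libraries a side no test was made.

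Mean shares of cells with endoderm factors changed by between −5.54 (Sox17) and −0.822 (Gata6) percentage points. In size this range includes the rises of Nanog (5.08) and Dppa3 (4.59), which started from means of 0.137% and 0.0999%. Gata4 was detected in 17.1% and 18.6% of cells at day 14 and in 14.3% and 15% at day 28, and Gata6 in 21% and 20.9% and in 19.5% and 20.8%. Both were in at most 0.110% of ES cells, whose median depth was 13118.5 and 13154 UMIs. Sox17 and Pdgfra were in 26.7% and 38.0% and in 12.5% and 15.4% of day 14 cells, and in 26.7% and 27.0% and in 10.4% and 10.2% of day 28 cells. Without thinning the shares were higher, for example 42.0% and 48.1% for Zfp42 and 59.4% and 65.7% for Gata4 at day 28.

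**Figure D3:**
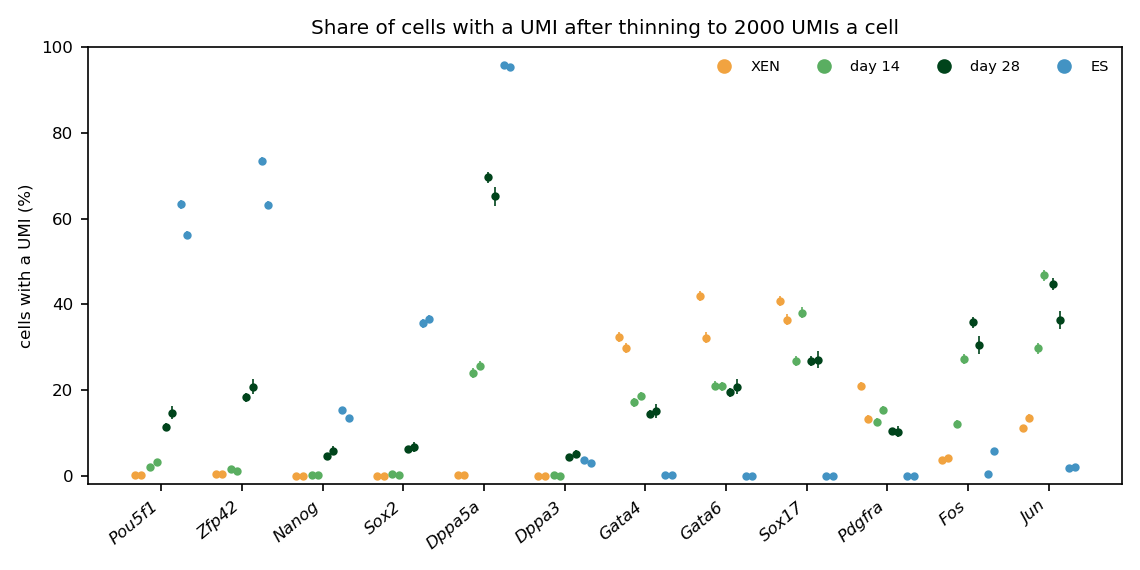
The y axis is the percent of cells with at least 1 UMI after thinning to 2000 UMIs, with 1 point per library, 95% Wilson intervals as bars and 12 genes along the x axis. Pou5f1, Zfp42, Nanog, Sox2, Dppa5a, Dppa3 and Fos are higher in both day 28 than in both day 14 libraries, and Jun overlaps. Gata4, Gata6, Sox17 and Pdgfra differ by at most 5.54 percentage points between the means of the days, against 5.08 for Nanog and 4.59 for Dppa3.

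Of 18 endoderm transcription factors and receptors, 1 was called higher and 0 lower, near the 7.19% and 0.621% of all genes, and the median log2 fold change was −0.29. Gata4 was at 99.4 and 98.8 CPM at day 14 and at 69.5 and 62.8 CPM at day 28 (−0.58 ± 0.58, adjusted p = 0.61), Sox17 at 179 and 258 CPM and at 151 and 146 CPM (−0.56 ± 0.85), Gata6 at 139 and 117 CPM and at 99.9 and 112 CPM (−0.28 ± 0.75) and Pdgfra, the receptor by which XEN cells are often sorted, at 75.5 and 76.7 CPM and at 50.6 and 41.5 CPM (−0.73 ± 0.34). In each of these 4 genes both day 28 libraries lay below both day 14 libraries, and the differences did not pass the test. SEs were smaller in a model of the 8 libraries of XEN, day 7, day 14 and day 28, described further on. There Gata4 was at −0.57 ± 0.18 (adjusted p = 0.072) and Sox17 at −0.55 ± 0.34 (0.35). Gata6 was at −0.27 ± 0.20 (0.44) and Pdgfra at −0.72 ± 0.26 (0.12), again without a call. Without the pluripotency-positive cells described further on, the same 8 libraries gave 0.29 ± 0.22 for Gata6, 0.12 ± 0.35 for Sox17 and 0.02 ± 0.19 for Gata4. Pdgfra was at −0.17 ± 0.26. Adjusted p lay between 0.66 and 0.98, so the signs of these 4 values were not resolved. XEN levels were higher than those of day 28 in each of the 4 genes, for example 198 and 193 CPM for Gata4 and 283 and 273 CPM for Sox17, and at day 7 they were at 76.3 and 62.8 CPM and at 117 and 262 CPM. In XEN-iPS none of the 4 exceeded 9.27 CPM. The gene called higher was Fgfr2, an FGF receptor, from 3.47 and 2.26 CPM to 8.99 and 6.21 CPM (1.41 ± 0.35). In thinned cells, and without day 14 replicate 1, day 14 replicate 2 or day 28 replicate 1, 0 genes of the list were called.

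Among genes of the parietal endoderm matrix, the 2 called lower were enzymes that modify collagen. P4ha1, a prolyl hydroxylase subunit, was at 156 and 217 CPM at day 14 and at 89.6 and 70.4 CPM at day 28 (−1.22 ± 0.25, adjusted p = 0.0071). Plod2, a lysyl hydroxylase, was at 253 and 374 CPM and at 164 and 111 CPM (−1.19 ± 0.30, adjusted p = 0.021). Both had been higher still in XEN, at 374 and 331 CPM and at 545 and 376 CPM, and lower at day 7. Of the 19 genes in that list 2 were thus called lower and 0 higher, against 0.621% and 7.19% of all genes, and the median log2 fold change was −0.47. The matrix proteins were not called. Col4a2 had the lowest of their fold changes, −1.08 ± 0.41 (adjusted p = 0.12), with 1642 and 1645 CPM and then 729 and 825 CPM, while Col4a1 was at −0.58, Sparc at −0.47 and Lama1 at −0.32. Neither P4ha1 nor Plod2 was called without day 14 replicate 2 (adjusted p = 0.12 and 0.23) or without day 28 replicate 2 (0.11 and 0.22).

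Of 19 tested visceral endoderm genes (20 listed), 1 was called lower, Rbp4, and 1 higher, Eomes, and over all genes these shares were 0.621% and 7.19%, so that the count gives no result about the list. Rbp4, the plasma carrier of retinol, had the lowest fold change of the named genes. It was at 189 and 110 CPM at day 14 and at 23.6 and 21 CPM at day 28 (−2.74 ± 0.64, adjusted p = 0.014), against 78.3 and 138 CPM in XEN cells, 232 and 275 CPM by day 7 and 17.4 and 2.59 CPM in XEN-iPS. Ttr and Cited1 had log2 fold changes of −0.97 and −1.26 and Apoe, a lipid carrier, one of 0.39, and none of these was called. Eomes, a T-box factor, was at 0.252 and 0.301 CPM and at 3.01 and 1.44 CPM (3.00 ± 0.58), and no gene of the list was called higher in thinned cells or without either day 14 library. Rbp4 was called without day 14 replicate 2 but not without day 14 replicate 1 (adjusted p = 0.099), day 28 replicate 1 (0.094) or day 28 replicate 2 (0.13), nor with the 10 XEN-to-iPS libraries alone (0.053).

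Among genes with at least 50 CPM, 14 were called lower with no overlap between the days, Rbp4, P4ha1 and Plod2 included, and 32 were called higher. Pitx1, a homeodomain factor, was at 26.2 and 79.2 CPM at day 14 and at 11.2 and 5.57 CPM at day 28 (−2.65 ± 0.48, adjusted p = 0.0033). Flt1, a receptor for VEGF, went from 86.1 and 237 CPM to 49.7 and 22.4 CPM (−2.16 ± 0.63, adjusted p = 0.044), and Cldn6, a tight junction claudin of early epithelia, from 128 and 212 CPM to 52.0 and 40.6 CPM (−1.88 ± 0.39, adjusted p = 0.0072). Pitx1 was at 3.90 and 6.22 CPM in XEN and at 56.2 and 110 CPM by day 7, Flt1 at 60.6 and 70.2 CPM and at 96.0 and 149 CPM, and Cldn6 at 114 and 306 CPM and at 267 and 460 CPM. Without day 14 replicate 2 or day 28 replicate 2 none of the 3 was called (adjusted p = 0.077 and 0.060 for Pitx1, 0.42 and 0.32 for Flt1, 0.11 and 0.11 for Cldn6), and without day 28 replicate 1 Flt1 was not (0.073). For Pitx1 and Flt1 the 2 day 14 libraries lay further apart, as a ratio, than day 14 replicate 1 and day 28 replicate 1. With 1 library left out the log2 fold change ranged from −3.26 to −1.64 for Pitx1 and from −2.85 to −1.26 for Flt1. For Cldn6 it ranged from −2.22 to −1.47. Creb3l1, a membrane-bound transcription factor of secretory cells, and Prss12, a serine protease, had log2 fold changes of −1.67 ± 0.30 and −1.60 ± 0.32. The other 6 were Cmtm8 (−1.51), Pdlim7 (−1.23), Nt5dc2 (−1.18), Fbln1 (−1.09), Tspan4 (−1.07) and Psme2 (−1.02). Of these genes Pitx1, Flt1, Prss12, Cmtm8, Fbln1 and Psme2 were lower in all 4 libraries of XEN and day 28 than in all 4 of day 7 and day 14. Other libraries of the 2 runs were not part of this comparison. Prss12 was at 3.94 and 5.87 CPM in XEN against 30.1 and 57.3 CPM by day 7, Fbln1 at 4.31 and 3.29 CPM against 29.6 and 52.3 CPM, and Psme2 at 32.3 and 56.3 CPM against 176 and 250 CPM. For these 6 genes, too, run and day cannot be told apart. Each of the 14 genes lost its call when at least 1 of the 4 libraries was left out, with a highest adjusted p between 0.0501 for Creb3l1 (without day 28 replicate 2) and 0.48 for Fbln1 (without day 14 replicate 2). In thinned cells 8 of the 14 were not called, Flt1, Nt5dc2, Prss12, Cmtm8, Tspan4, Plod2, Fbln1 and Psme2, with adjusted p between 0.0505 for Flt1 and 0.26 for Psme2. Of the 23 named genes called higher, 12 kept their call whichever library was left out.

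Several of the genes that rose were not on the pluripotency list. Trh, which encodes thyrotropin-releasing hormone, was at 1.56 and 0.569 CPM at day 14 and at 77.4 and 88.5 CPM at day 28 (6.32 ± 1.33, adjusted p = 0.0076). Stmn2, a microtubule regulator, rose from 7.15 and 3.66 CPM to 76.3 and 113 CPM (4.14 ± 0.86, adjusted p = 0.0070). Both lost their call without day 14 replicate 1 (adjusted p = 0.061 and 0.051) or replicate 2 (0.13 and 0.12). Mylpf, a myosin light chain, was at 9.49 and 10.2 CPM and at 139 and 144 CPM (3.84 ± 0.27, adjusted p = 4.9e-06), with 3.56 to 7.02 CPM in XEN and at day 7. In XEN and at day 7 Trh did not exceed 2.60 CPM and Stmn2 was at 0.0281 and 0.00883 CPM and at 5.90 and 8.07 CPM. All 3 genes were also high in pluripotent cells, with 536 and 81.5 CPM for Trh, 267 and 321 CPM for Stmn2 and 388 and 392 CPM for Mylpf in XEN-iPS, and 121 and 90.6 CPM, 509 and 399 CPM and 369 and 306 CPM in ES.

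The small heat shock protein Hspb1 was at 23.7 and 35.6 CPM at day 14 and at 242 and 311 CPM at day 28 (3.22 ± 0.50, adjusted p = 0.0010). Of 15 genes of heat shock and interferon response it alone was called, a share near the 7.19% of all genes called higher. It was at 4.73 and 14.7 CPM in XEN, at 45.5 and 38.6 CPM by day 7, at 1172 and 470 CPM in XEN-iPS and at 721 and 837 CPM in ES. The noncoding RNA Meg3, which is imprinted, went from 4.22 and 3.44 CPM to 33.0 and 83.6 CPM (3.93 ± 0.51), the cytochrome c of testis Cyct from 6.60 and 5.80 CPM to 43.8 and 58.9 CPM (3.05 ± 0.45), and the secreted protein Wfdc2 from 6.60 and 5.20 CPM to 62.5 and 55.7 CPM (3.33 ± 0.35). In XEN Meg3 was at 12.9 and 18.5 CPM and by day 7 at 8.14 and 17.6 CPM, above its day 14 level, while Cyct and Wfdc2 did not exceed 6.19 and 4.59 CPM in those libraries. All 4 of these genes were called whichever library was left out. Fam25c and the apolipoprotein Apoc1 had log2 fold changes of 3.33 and 2.80 and each lost its call without day 14 replicate 1 (adjusted p = 0.11 and 0.067) or replicate 2 (0.061 and 0.14).

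Genes of formative and early epiblast cells were called in 6 of 16 cases, all higher, against 7.19% of all genes, with a median log2 fold change of 1.97, and all 6 stayed under 20 CPM. They were Otx2 (0.0180 and 0.0223 CPM at day 14, 2.66 and 1.05 CPM at day 28), Lef1, Nodal, Lefty2, Foxd3 and Grhl2. In thinned cells 1 gene of the list was called, and 0 were without day 14 replicate 2. Fgf5, a marker of the primed epiblast, had 0 UMIs at day 14 and 0.207 and 0.157 CPM at day 28 and was not called.

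Signalling genes moved in part. Against the 7.19% of all genes called higher, 5 of 16 were called in the FGF list, all higher, with a median of 1.17. Etv5, a transcription factor downstream of FGF and ERK, was at 3.83 and 3.05 CPM at day 14 and at 27.5 and 38.7 CPM at day 28 (3.27 ± 0.43, adjusted p = 3.5e-04). Fgf4, the FGF ligand of the epiblast, was at 1.13 and 0.959 CPM and at 6.16 and 11.1 CPM (3.04 ± 0.72), and the receptors Fgfr1 and Fgfr2 and the inhibitor Spry4 made up the rest. Fgf4 lost its call without day 14 replicate 1 (adjusted p = 0.12), day 14 replicate 2 (0.17) or day 28 replicate 2 (0.12), and without day 14 replicate 2 only 1 gene of the list was called, and in thinned cells 2 were. In the BMP and NODAL list 4 of 17 were called higher, the ligands Bmp4, Nodal and Gdf3 and the inhibitor Lefty2, with log2 fold changes between 3.10 and 5.36 and at most 27.7 CPM in a library. In thinned cells 3 were called, and without day 14 replicate 1 none was. Tdgf1, the coreceptor of Nodal, was at 3.68 and 7.64 CPM and at 53.2 and 57.9 CPM and did not pass (3.29 ± 1.21, adjusted p = 0.11). Among 16 WNT targets Cdx1, Bmp4, Lef1, Sp5 and Notum were called higher and 0 lower, all under 20 CPM, in thinned cells 1 was, and without either day 14 library none was. Some of these genes are shared between lists. Fgf4 and Gdf3 are also in the pluripotency list, Nodal, Lefty2 and Lef1 in the epiblast list and Fgfr2 in the endoderm list. Bmp4 is in both the BMP and NODAL list and the WNT list. Genes of the lists that the naming rule did not pick, here and elsewhere, were named after their values had been seen.

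Enzymes of DNA methylation and germline genes were described together. Dnmt3l, the catalytically inactive partner of the de novo methyltransferases, was at 5.55 and 3.28 CPM at day 14 and at 24.5 and 27.3 CPM at day 28 (2.56 ± 0.69, adjusted p = 0.032), and Tet1, a methylcytosine dioxygenase, at 9.35 and 9.28 CPM and at 28.4 and 29.4 CPM (1.63 ± 0.46, adjusted p = 0.039). Both were lost on leaving out any 1 library. Tet1 was not called in thinned cells either (1.12, adjusted p = 0.24) or with feeder cells kept (0.063), and without the pluripotency-positive cells described further on it turned to −0.32 (adjusted p = 0.73). Dnmt3l was not called with the 10 XEN-to-iPS libraries alone (adjusted p = 0.12), and neither was Dazl (0.092). Without the pluripotency-positive cells Dnmt3l was at 2.43 ± 0.82 (adjusted p = 0.26) and Dazl at 2.67 ± 0.72 (0.17), both without a call. The calls were 2 of 9, against 7.19% of all genes higher. The other 7 enzymes were not called, with Tet2 at 1.04 (adjusted p = 0.053), Dnmt3a at 0.81 (0.092), Dnmt3b at 0.42, Uhrf1 at 0.00, Tdg at −0.04, Dnmt1 at −0.43 and Tet3 at −0.81 (0.025, under the limit of fold). With DESeq2, without the filter on low counts or with the 4 libraries alone, 3 enzymes were called higher. Of 18 germline genes whose promoters are methylated in somatic cells, 9 were called, all higher, against 7.19% of all genes, with a median of 2.49. Dazl, a germ cell RNA-binding protein, was at 2.77 and 0.658 CPM and at 27.1 and 18 CPM (3.74 ± 0.95, adjusted p = 0.022), above the 1.24 and 1.38 CPM of ES. Its log2 fold change ranged from 3.03 to 5.08 when 1 library was left out. The meiosis genes Sycp1, Sycp3 and Hormad1 and the piRNA genes Mael, Ddx4, Mov10l1 and Tdrd1 were among the called, all under 10 CPM. The X-linked Rhox5, Rhox6 and Rhox9 were between 52.5 and 175 CPM at day 14 and were not called. In thinned cells 2 of the germline genes were called and without day 14 replicate 2, 0 were, and Dazl was not called without day 28 replicate 1 (adjusted p = 0.092) or replicate 2 (0.055) either.

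**Figure D4:**
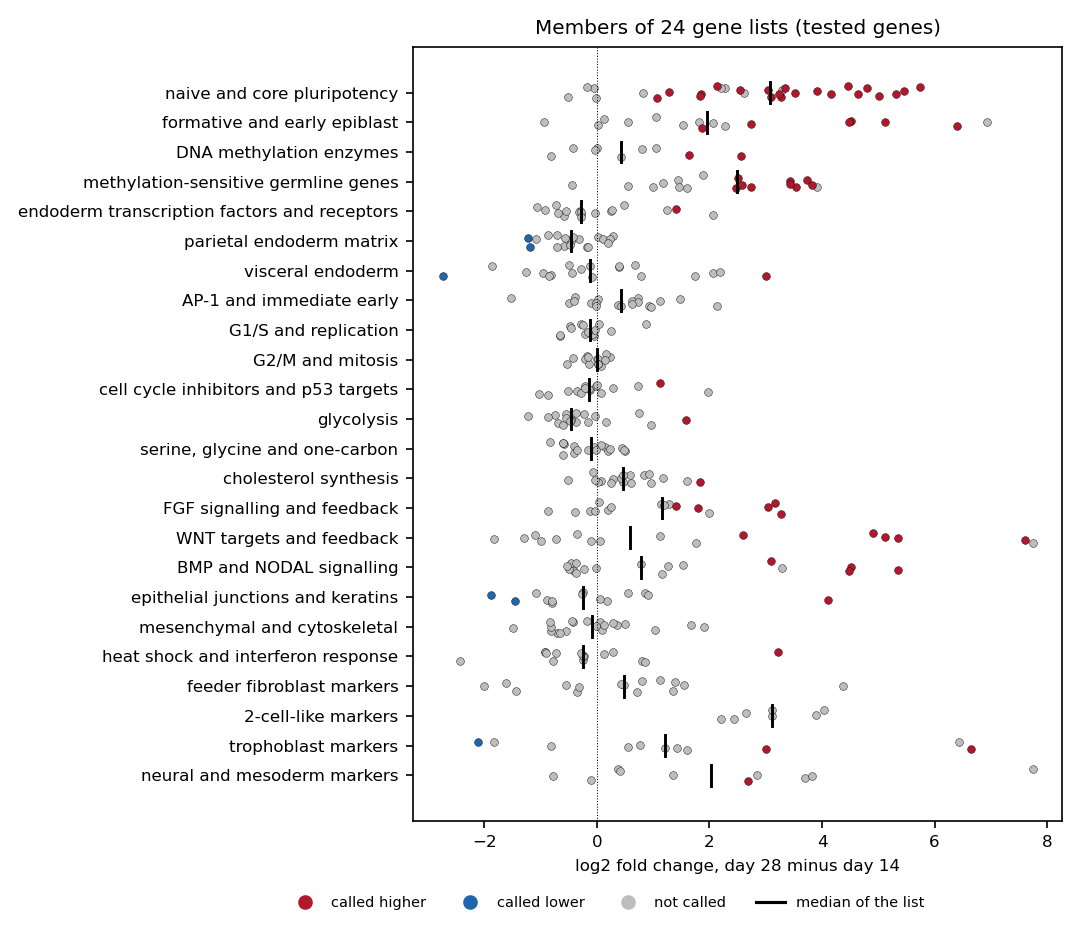
Each point is a tested member of 1 of 24 gene lists, placed by its log2 fold change, day 28 minus day 14, with the list's median as a bar. Points called higher gather in the pluripotency, epiblast, germline and signalling lists, and the medians of the endoderm, cell cycle and metabolic lists lie between −0.47 and 0.46.

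Of 16 G1/S genes and 14 G2/M genes 0 were called, against 7.19% of all genes higher and 0.621% lower, with medians of −0.13 and 0.01. Birc5 was at 211 and 198 CPM at day 14 and at 239 and 176 CPM at day 28, and Rrm2 at 83.4 and 89.7 CPM and at 103 and 73.9 CPM, so that the day 14 values lie within the day 28 values for both. Trp53inp1 (1.11), Pfkp (1.58) and Idi1 (1.83) were the only genes called among 16 cell cycle inhibitors and p53 targets, 19 of glycolysis and 18 of cholesterol synthesis, shares near that of all genes. In thinned cells 0 genes of these 3 lists were called, and the calls of Trp53inp1 and Idi1 were lost whichever library was left out. Of 18 genes of serine, glycine and one-carbon metabolism 0 were called, with Mthfd2 at 286 and 145 CPM and at 112 and 172 CPM.

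Of 19 AP-1 and immediate early genes 0 were called, against 7.19% of all genes higher and 0.621% lower, with a median log2 fold change of 0.43. Their levels ran from under 1 CPM for Fosl1 to 377 CPM for Jun. Fos was at 74.2 and 191 CPM at day 14 and at 289 and 217 CPM at day 28 (0.93 ± 1.17), with 17.3 and 21.9 CPM in XEN. In the model of 8 libraries described further on, its log2 fold change was 0.94 ± 0.39 (adjusted p = 0.16). After thinning, Fos was detected in 12.1% and 27.2% of day 14 cells and in 35.8% and 30.5% of day 28 cells. Shares for Jun were 29.8% and 46.8% and then 44.7% and 36.3%, which overlap. Jun was at 229 and 377 CPM and at 348 and 254 CPM (−0.01 ± 0.60), Atf3 at 57.8 and 108 CPM and at 142 and 132 CPM (0.73 ± 0.53), and Egr1 at 28.0 and 57.5 CPM and at 141 and 98.3 CPM (1.48 ± 0.81, adjusted p = 0.31). Egr1 was called with the 4 libraries alone (1.49, adjusted p = 0.031), where 2 genes of the list were called higher, and in thinned cells 1 was. The 2 day 14 libraries stood apart in this list, at 896 and 1679 CPM in sum on unscaled library totals, against 1882 and 1630 CPM at day 28.

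Markers of other lineages were called in part, against 7.19% of all genes higher and 0.621% lower. Of 11 tested trophoblast markers (12 listed), Tfap2c and Eomes were higher and Gata2 lower, and Cdx2 was not called. Tfap2c, an AP-2 factor also expressed in naive pluripotent and germ cells, was at 0.234 and 0.0781 CPM at day 14 and at 14.0 and 15.5 CPM at day 28 (6.66 ± 0.67, adjusted p = 5.8e-05). In thinned cells 1 trophoblast marker was called higher and 0 lower. Among 14 genes of epithelial junctions and keratins Cldn3 was higher and Cldn6 and Esrp1 lower. Of 20 mesenchymal genes 0 were called, with Tagln2 at 509 and 513 CPM and at 304 and 275 CPM (−0.82 ± 0.31, adjusted p = 0.13). Tubb3 was the only gene called of 10 tested neural and mesoderm markers, and its call too was lost whichever library was left out.

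The share of cells with 2 or more UMIs over Nanog, Sox2, Esrrb, Utf1, Tdh and Gdf3 was 2.94% and 2.96% at day 14 and 27.6% and 34.0% at day 28, against 0.821% and 1.20% in XEN and 85.1% and 59.6% in XEN-iPS. In ES the share was 96.6% and 98.6%. XEN-iPS cells below the limit were shallow, with medians of 2760.5 and 2007 UMIs. Cells left below it at day 28 can still include pluripotent cells, and how many was not tested. These shares are of unthinned cells. At day 28 the cells with 2 or more such UMIs were deeper, with medians of 26819.5 and 45365 UMIs against 15408 and 25266 UMIs for the others. The part of doublets in these cells was not tested. The comparison was repeated without these cells, in a model of the 8 libraries of XEN, day 7, day 14 and day 28. Then 16 genes were called higher and 2 lower of 14447 tested, against 1134 and 198 in the same model with all cells. In bulk sums of this kind, fewer cells that express a gene and less RNA per cell cannot be told apart.

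The fold changes of the called genes were then read again in the cells left, for those genes that could still be tested. Of the 1215 genes called higher, 770 passed the filter on low counts in both fits of the 8 libraries. Their median log2 fold change in the main model was 2.51, against 3.21 for all 1215. Of the 770, 698 stayed above 0 and 435 kept a log2 fold change of 1 or more. The median of the 770 went from 2.52 with all cells in the 8 libraries to 1.15. Genes that did not pass the filter are not covered by these values. The 105 called lower all stayed below 0, with medians of −1.32 and −0.88. Both sets had been chosen at a log2 fold change of 1 or more in size from the same libraries. Their signs after removal of part of the cells are therefore no independent result. Since the 6 genes were used to remove cells, their own values are not given as results here. Zfp42 was called (2.58 ± 0.37, adjusted p = 0.040), and the connexin Gjb5 (2.58 ± 0.33, adjusted p = 0.035) and Hamp2, a hepcidin, (4.68 ± 0.27, adjusted p = 1.5e-04) were higher too. Apoc1 had a log2 fold change of 2.47 without a call (adjusted p = 0.076), while Etv5, Cyct and Mylpf went to 0.38, 0.52 and 1.05. Enpp2 (−2.90 ± 0.42) and Qrich2 (−2.02 ± 0.29) were the 2 genes called lower, and Rbp4 stood at −2.29 ± 0.35 (adjusted p = 0.052). The median of the endoderm factors and receptors went from −0.28 to 0.18, that of the parietal matrix genes from −0.46 to 0.15, and that of the AP-1 genes from 0.44 to 0.94, with 0 of them called. Gjb5, Hamp2, Enpp2 and Qrich2 were named after their values had been seen.

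**Figure D5:**
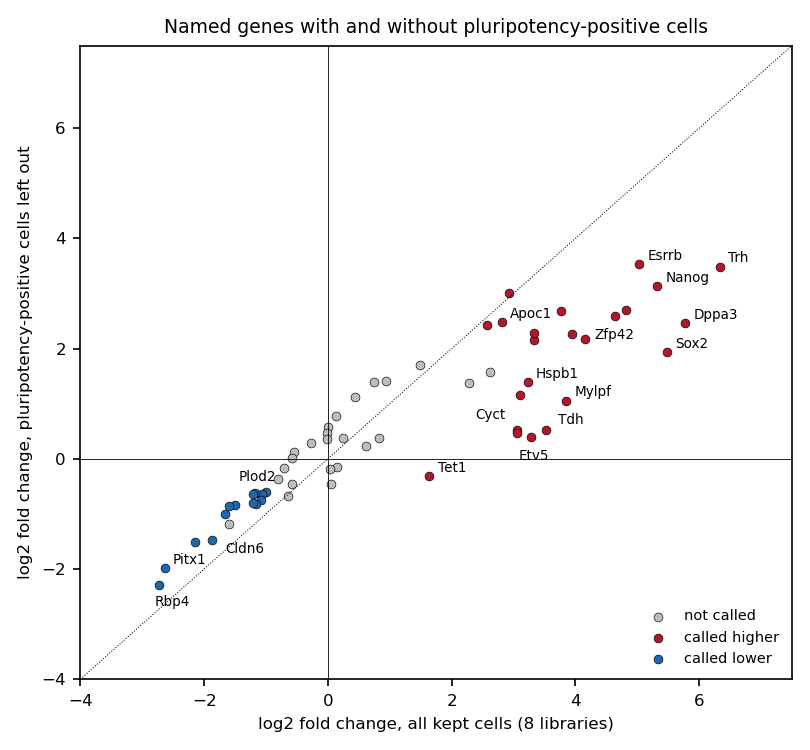
Each point is a named gene, with its log2 fold change over all cells of the 8-library model on the x axis and over the cells left after removal of those with 2 or more UMIs of the 6 pluripotency genes on the y axis. Genes called lower lie a little above the dotted line of equal values, Apoc1 close to it, and most genes called higher well below it. The 6 genes used to remove cells are among those called higher, and their positions are tied to that removal.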

How the data were processed

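Single cells were captured with the 10x 3' v2 chemistry. Per the labels and the study's methods, the authors aligned reads to mm10 with SEQC and deposited a table of UMI counts per cell and gene for each library, after removing cells rich in mitochondrial RNA and cells of low complexity. Counts of all 20 libraries (10 conditions, 2 technical duplicates each) were summed over cells with 500 or more genes and fewer than 5 UMIs of Col1a1, Col1a2 and Col3a1. Gene symbols in the files numbered 22936, of which 21978 had a position in GENCODE vM21.

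Sums were normalised by TMM, filtered by filterByExpr and tested with edgeR 4.0.16 (quasi-likelihood, 10 residual degrees of freedom, Benjamini-Hochberg adjustment) in R 4.3.3. Levels are CPM on TMM-scaled library sizes, except for sums over a list and the Y-linked and Xist levels, which are on unscaled library totals. Each ± is an SE. DESeq2 1.42.0 was an alternative. The scripts were tested on simulated counts. Shares of cells used cells of 2000 or more UMIs, thinned to 2000, with Wilson intervals (Python 3.11.15, scipy 1.17.1).

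The named genes were, among called genes with 50 CPM or more and no overlap between days, the 15 highest and 15 lowest by log2 fold change, up to 2 called members in each direction of each list with 20 CPM or more (where none was called, the 2 of highest level), and genes the study names. The members of the comparison and the 24 gene lists were chosen with earlier results of these data known. Promoters came from RefSeq (GRCm38.p6). The result of 1 named gene is not reported here.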

Additional observations from a re-analysis of the deposited data

How the results depend on the processing

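Of the 37 named genes that were called, 37 stayed called with RLE size factors, with DESeq2, without the filter on low counts and with only the 4 libraries. Fewer stayed called with the 8 libraries (34), with sums thinned (34), with feeder cells kept (31), with cells thinned (28), with the 10 libraries (28) and when 1 library was left out (between 15 without day 14 replicate 2 and 24). Without pluripotency-positive cells 1 stayed called of the 31 that had not been used to remove cells. Genes called higher numbered 790 with only the 10 XEN-to-iPS libraries, 307 after thinning cells to 2000 UMIs, 538 when library sums were thinned to the totals of the thinned cells, 16 without pluripotency-positive cells, and between 295 and 803 when 1 library was left out. Genes called lower numbered 165 with DESeq2, 160 without the filter, 65 with the 10 libraries, 232 with the 4 libraries, 198 with the 8 libraries, 51 with feeder cells kept, 27 after thinning cells, 57 after thinning sums, 2 without pluripotency-positive cells and between 21 and 60 when 1 library was left out. Of 375 distinct list genes, 54 were higher and 6 lower. These became 82 and 13 with the 4 libraries, 29 higher after thinning cells, 1 and 0 without pluripotency-positive cells, 3 lower with the 10 libraries, 11 lower with the 8 libraries, and 16 to 38 higher and 1 to 5 lower when 1 library was left out. Fewer samples or cells enter several of these settings, and the cause was otherwise not tested. Tet1 turned to −0.32 without pluripotency-positive cells (adjusted p = 0.73). Without thinning, day 28 minus day 14 in percentage points was 35.3 for Pou5f1, 39.9 for Zfp42, 19.4 for Nanog, 20.8 for Sox2, 15.8 for Dppa3, −0.307 for Gata4, −0.0694 for Pdgfra and 2.09 for Gata6, whose thinned value was −0.822. The replicate block gave 1159 higher and 100 lower calls and, among the 37 named genes called, 36 stayed called. Same-numbered libraries of the 2 days deviated with a correlation of −0.186, so the numbers do not pair them, and the crossed block gave 1163 and 107. The crossed block, the 8-library model and the thinned sums were chosen after seeing the data. Genes at a few UMIs limit the comparison: 479 tested genes had 0 UMIs in both day 14 libraries.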
